A study of Mus musculus with 21 samples.

Results

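The genes described here encode proteins that store maternal mRNA in the egg or control the length of its poly(A) tail. They were chosen by name, and a merged long-read transcript belonged to a gene when its exons overlapped exons of that gene on the same strand in GENCODE vM21 (mm10). The 10 names gave 9 genes, because Msy2 is the older name of Ybx2, and these genes held 15 of 22612 merged transcripts, among 10917 genes with any merged transcript. Short-read RNA-seq covered 7 stages with 2 libraries each, and each stage also had 1 long-read library. Sperm came from the epididymis of DBA/2J males (DBA/2N in the protocol text), and MII oocytes came from C57/BL6J females of 3 to 5 weeks that had received 7.5 IU of PMSG and 7.5 IU of hCG. Oocytes were lysed at 20 h after hCG. Embryos were ♂DBA/2J x ♀C57/BL6J, from females of the same age range and the same hormone treatment. They were cultured in KSOM until lysis at 24 to 26 h (1-cell), 46 to 48 h (2-cell), 54 to 58 h (4-cell), 68 to 70 h (8-cell) or 94 to 96 h (blastocyst). Oocytes or embryos of a library were pooled within a batch, so p-values measure the spread between such pools and not between animals.

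A growing oocyte makes large amounts of mRNA and keeps much of it untranslated until meiotic maturation or fertilization. CPEB1 binds the cytoplasmic polyadenylation element (CPE) in the 3′ end of such mRNAs and recruits the machinery that shortens or extends their tails, and DAZL binds many of the same mRNAs and promotes their translation. Poly(A)-binding proteins coat the tail, with PABPC1L as the form of oocytes and early embryos and PABPC1 as the form of somatic cells. YBX2 packages and stabilizes maternal mRNA, ZAR1 and ZAR1L bind it in storage particles, and LSM14B and the RNA helicase DDX6 are repressors in the same kind of particle or in P-bodies.

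Levels are TPM, the share of the RNA pool that a transcript holds after scaling by its length, which keep no sequencing depth. In such values a loss of an mRNA and a gain of other RNA cannot be told apart, and because cDNA synthesis by Smart-seq2 starts at the poly(A) tail, the amount of an mRNA and the length of its tail cannot be told apart either. The 8 oocyte markers summed to 17475 and 29423 TPM in the oocyte libraries and to at most 11.6 TPM in sperm, and the 8 sperm markers summed to 17536 and 21334 TPM in sperm and to at most 46.4 TPM elsewhere. Of 6 blastocyst markers with a merged transcript, the sum was 10196 and 37462 TPM in blastocysts and at most 832 TPM elsewhere. Of 9 cumulus markers only Ptgs2 had a merged transcript, at no more than 0.481 TPM from oocyte to blastocyst. The 2-cell libraries differed most from each other, with a median SD of 1.04 on the log2 scale over all genes, against 0.186 at the 4-cell stage. The oocyte markers summed to 113 and 1370 TPM in 2-cell replicates 1 and 2, and 5 markers of the 2-cell stage to 20.2 and 332 TPM. These 5 markers summed to 32.9 and 36.8 TPM in the 4-cell libraries and to 22.5 TPM in 8-cell replicate 1. Those sums were above that of 2-cell replicate 1, and all other libraries outside the 2-cell stage held at most 13.3 TPM. The oocyte markers of 2-cell replicate 1 were also below those of both 4-cell libraries (140 and 148 TPM).

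The merged transcripts did not cover all of these genes to the same extent. The annotated exon chain was found complete for Zar1, Zar1l, Dazl, Pabpc1 and Ybx2. Cpeb1 was represented by 4 exons at its 3′ end of 12 in the annotation (1642 of 3111 bases), Lsm14b by 2 of 9 exons, Pabpc1l by 3 exons and 573 bases against 14 exons and 2354 bases in the annotation, and Ddx6 by 995 bases of its last exon, which is 16.4% of the annotated length. The TPM of these 4 genes are therefore values of 3′ fragments, and levels were compared between genes with that limit.

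The 3′ ends are shown because CPEB1 acts there. Within the last 100 spliced bases, the CPE (searched as TTTTAT or TTTTAAT on the transcript strand) was present in 18.1% of the 15779 merged transcripts whose end could be read from annotated transcript sequence, and a poly(A) signal (AATAAA or ATTAAA) in 74% of them. Among the merged transcripts of members only those of Ybx2 had a CPE in this window. A poly(A) signal was in 12 of 15 member transcripts, the exceptions being both Ybx2 transcripts and the Pabpc1l fragment, whose end is not shown. Transcripts of the same gene shared their end in Dazl, Zar1, Ybx2 and Pabpc1, so the 12 are not separate ends. In a window of 200 bases, where 25.8% of 15584 merged transcripts held a CPE, Ybx2 was again the only member with one. The stretches below run 5′ to 3′, with the poly(A) signal in capitals, and for Ybx2 the CPE in capitals, which starts 55 bases before the end of the transcript.
Dazl, chr17:50279400-50279429, minus strand: cttgtatacacgAATAAAacctttttttca
Zar1, chr5:72577117-72577146, minus strand: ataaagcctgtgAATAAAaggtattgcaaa
Zar1l, chr5:150507056-150507085, minus strand: tcttcagcttaaAATAAAccttgtgacagt
Lsm14b, chr2:180035429-180035458, plus strand: aaatgcaaactaAATAAAcattggactctt
Ddx6, chr9:44640697-44640726, plus strand: ttaatttatctcAATAAAagcccactggaa
Ybx2, chr11:69941532-69941561, plus strand: cctctgaagccaTTTTATgaactgtcatgt
Pabpc1, chr15:36595976-36596005, minus strand: aaatataaaataAATAAAaaaaggaaagga
The signal began 19 to 37 bases before the end in Dazl, Zar1, Zar1l, Lsm14b and Ddx6, and 88 bases before it in Pabpc1. Among the long-read transcript models this Pabpc1 end was seen only in the 8-cell library, with A at 16 of the 20 bases after it.

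Between the oocyte and the blastocyst, 6 of the 9 genes fell (Zar1, Dazl, Lsm14b, Cpeb1, Zar1l and Pabpc1l) and 2 rose (Pabpc1 and Ddx6), while Ybx2 did not pass the test (limma on log2(TPM + 1), adjusted p under 0.05). The changes of the 6 genes ranged from -2.14 for Pabpc1l to -10.14 for Zar1 on the log2 scale. Over all 10000 genes tested, 53.4% were called in this comparison, 35.43% upwards and 17.98% downwards. The median change was -3.05 for the 9 genes and 0.82 for all genes. The call for Pabpc1l rests on little, since its adjusted p was 0.0442 and rose to 0.266 without oocyte replicate 2. It was also lost without any 1 of the 4-cell, 8-cell and blastocyst libraries (adjusted p from 0.0574 to 0.131), and the rise of Ddx6 was lost without blastocyst replicate 1 (adjusted p = 0.0587).

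The step with the most calls among members was that from 1-cell to 2-cell, when the embryonic genome becomes active. There Pabpc1 rose and Zar1, Dazl, Pabpc1l and Cpeb1 fell, so 5 of 9 genes were called against 32.3% of all genes (26.07% upwards, 6.20% downwards). Ybx2, Zar1l, Lsm14b and Ddx6 did not pass the test. No member was called between oocyte and 1-cell (0.380% of all genes), and 3 had an unadjusted p under 0.05, as did 9.20% of all genes. Zar1 alone was called on the way to the 4-cell stage (3.40%). The step to the 8-cell stage had no call among members (1.67%), with 1 member at an unadjusted p under 0.05 against 15.7% of all genes, and neither had the step to the blastocyst (3.00%), with 1 member against 14.4%. For all 9 genes the 4-cell and 8-cell libraries did not overlap, as for 70.3% of all genes, and no difference between these stages passed the test, in which the spread is shared across stages. Quantile scaling moved the median of all genes by -0.84 in the 1-cell to 2-cell step and by -0.75 from oocyte to blastocyst, and then 1591 genes rose and 1757 fell in the former against 2607 and 620 without it, and 2659 rose and 2637 fell in the latter against 3543 and 1798. The 5 calls of the 1-cell to 2-cell step and the 8 calls from oocyte to blastocyst kept their direction and passed under that scaling too.

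**Figure D1:**
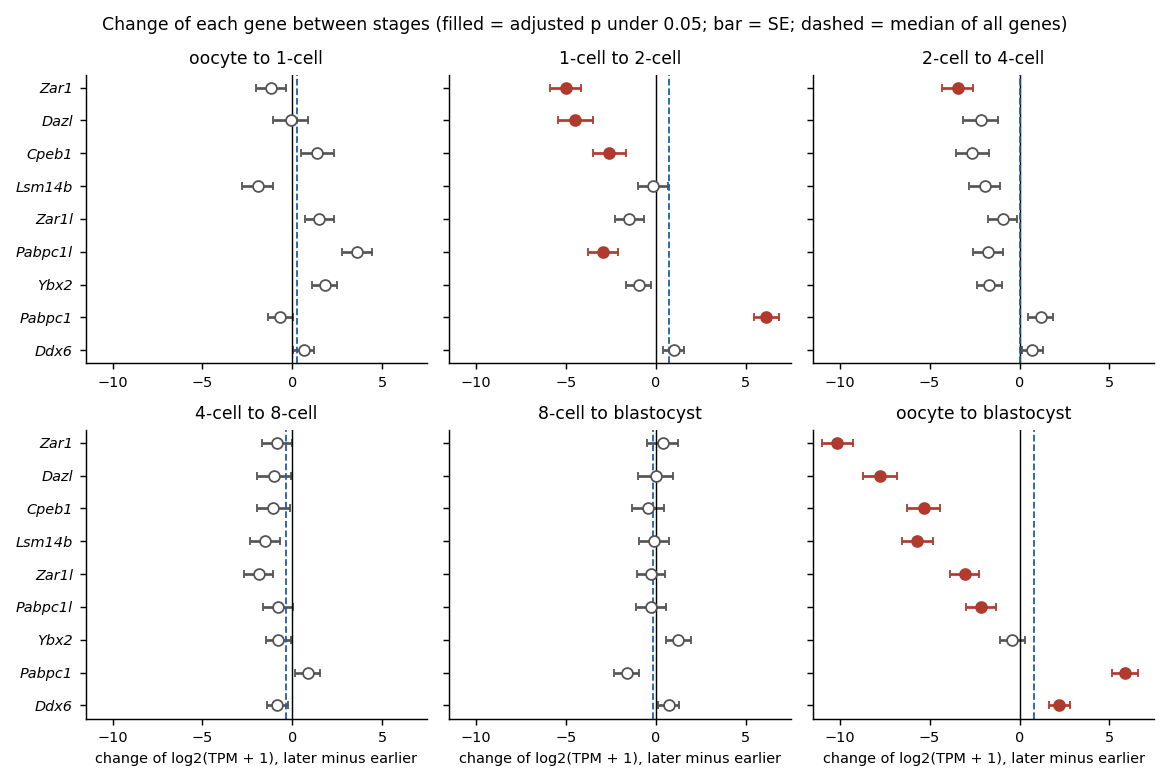
Change of log2(TPM + 1) of each of the 9 genes (rows) between stages, later minus earlier, with bars for the SE of the limma fit of 12 libraries and a dashed line for the median of all genes. Filled points passed at an adjusted p under 0.05. Pabpc1 at 6.14 and Zar1 at -5.03 lie farthest apart in the 1-cell to 2-cell panel, and the panels after the 2-cell stage hold 1 filled point, Zar1 from 2-cell to 4-cell.

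Cpeb1 (ENSMUSG00000025586.17, chr7:81347026-81455465, minus strand), the CPE-binding protein, was at 33.9 and 191 TPM in the oocyte libraries and at 118 and 384 TPM in 1-cell embryos. It was at 58.7 and 20.2 TPM in 2-cell embryos, at 6.40 and 3.55 TPM in 4-cell embryos, and between 0.530 and 2.43 TPM in the 8-cell and blastocyst libraries. The oocyte and 1-cell ranges overlapped, as did the oocyte and 2-cell ranges, and from the 4-cell stage on every library was lower than any of the earlier embryo or oocyte libraries. From 1-cell to 2-cell Cpeb1 changed by -2.59 ± 0.90 (log2 scale, SE of the fit, n = 2 libraries a stage, limma adjusted p = 0.0410), and from oocyte to blastocyst by -5.33 ± 0.90 (limma adjusted p = 0.000266). The former call was the weakest of its step and was lost in 13 of 20 alternatives, with adjusted p up to 0.287 without 1-cell replicate 2 and 0.161 without 2-cell replicate 2. It was also lost with any 1 of the 4-cell, 8-cell or blastocyst libraries left out (adjusted p from 0.0528 to 0.0599).

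Dazl (ENSMUSG00000010592.9, chr17:50279395-50293636, minus strand), a germ cell RNA-binding protein, was at 166 and 1423 TPM in the oocyte libraries and at 639 and 329 TPM in 1-cell embryos. These 4 libraries overlapped, and the oocyte libraries differed from each other by a factor of 8.56. At the 2-cell stage Dazl was at 8.55 and 43.0 TPM, and at the 4-cell stage at 4.15 and 3.16 TPM. Both 8-cell libraries were near 1.3 TPM (1.28 and 1.26), and blastocysts were at 2.06 and 0.662 TPM. Between 1-cell and 2-cell Dazl changed by -4.49 ± 0.97 (limma adjusted p = 0.00343), a fall that passed in all 20 alternatives, with adjusted p from 0.000830 to 0.0392. From oocyte to blastocyst Dazl fell by 7.76 ± 0.97 on the log2 scale (limma adjusted p = 2.57e-05).

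Pabpc1l (ENSMUSG00000054582.4, chr2:164025450-164050538, plus strand), the embryonic poly(A)-binding protein, was measured by a 3′ fragment alone. This fragment lacked annotated exon 13 and ended 191 bases before the annotated end. Its only long-read model came from the 1-cell library, and Pabpc1l mRNA that differs from it may not be counted in full. The fragment had its highest levels in the 1-cell libraries, at 102 and 35.7 TPM, against 2.16 and 7.04 TPM in the oocyte libraries. The ranges of oocyte and 1-cell libraries did not overlap and the difference was 3.61 ± 0.84, with a limma adjusted p of 0.1001. This difference passed where only the libraries of the 2 stages were fitted (adjusted p = 0.0339), where the spread was weighted by stage (0.0278) and where either 2-cell library was left out (0.00752 without replicate 1 and 0.00738 without replicate 2). The fragment was at 2.22 and 18.8 TPM in 2-cell embryos and 2.13 and 0.821 TPM in 4-cell embryos. The 8-cell and blastocyst libraries held between 0.135 and 0.527 TPM. The change from 1-cell to 2-cell was -2.94 ± 0.84 (adjusted p = 0.0158), and the call was lost without 1-cell replicate 1 (0.142), without 2-cell replicate 1 (0.101), with only the libraries of these stages (0.0709) and with the spread weighted by stage (0.0815).

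Pabpc1 (ENSMUSG00000022283.15, chr15:36595661-36609668, minus strand), the somatic poly(A)-binding protein, had low TPM in the oocyte and 1-cell libraries. It was at 6.05 and 3.13 TPM in the oocyte libraries and at 1.67 and 3.33 TPM in 1-cell embryos. The 2-cell libraries held 236 and 239.9 TPM, the 4-cell libraries 565 and 512 TPM and the 8-cell libraries 991 and 953 TPM, and the blastocyst libraries were lower and farther apart, at 492 and 198 TPM. At each step from 1-cell up to 8-cell, both libraries were above those of the preceding stage. The rise from 1-cell to 2-cell was 6.14 ± 0.70 (limma adjusted p = 0.000101), with adjusted p from 2.79e-05 to 0.00296 over its 20 alternatives. The steps to 4-cell (1.17 ± 0.70, adjusted p = 0.305) and to 8-cell (0.85 ± 0.70, adjusted p = 0.629) did not pass, nor did the difference of -1.63 ± 0.70 from 8-cell to blastocyst (adjusted p = 0.288). Pabpc1 has processed copies such as Pabpc2 and Pabpc6, whose reads may be shared with it, and these were at no more than 0.310 TPM in every library from oocyte to blastocyst.

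Ybx2 (ENSMUSG00000018554.13, chr11:69935796-69941605, plus strand), the germ cell Y-box protein, was at 22.0 TPM in both oocyte libraries, at 105 and 59.1 TPM in 1-cell embryos and at 39.6 and 40.2 TPM in 2-cell embryos. The 1-cell libraries were above every other oocyte or embryo library, but the difference from the oocyte, 1.80 ± 0.70, had a limma adjusted p of 0.392. It was at 13.1 and 10.5 TPM in 4-cell embryos, at 4.90 and 8.38 TPM in 8-cell embryos, and at 9.55 and 28.0 TPM in blastocysts, where 1 library lay above both oocyte libraries. Ybx2 was thus the 1 member without a call in any step from oocyte to blastocyst and in the comparison of the end points (-0.40 ± 0.70, adjusted p = 0.652).

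Zar1 (ENSMUSG00000063935.3, chr5:72576806-72581254, minus strand), a maternal-effect gene, had the highest level of all members, at 946 and 4016 TPM in the oocyte libraries and 477 and 1534 TPM in 1-cell embryos. The oocyte and 1-cell ranges overlapped. At the 2-cell stage it was at 30.6 and 20.8 TPM, at the 4-cell stage at 1.85 and 1.03 TPM and at the 8-cell stage at 0.300 and 0.369 TPM. Blastocyst replicate 1 held 2.01 TPM, and in replicate 2 Zar1 was listed at 0. Zar1 changed by -5.03 ± 0.85 into the 2-cell stage (limma adjusted p = 0.000729) and by -3.45 ± 0.85 into the 4-cell stage (adjusted p = 0.0451). The former passed in all 20 alternatives, and the latter was lost in 13 of 20, with adjusted p up to 0.360 without 4-cell replicate 2, 0.277 without 4-cell replicate 1 and 0.0503 to 0.0846 without an oocyte, 1-cell or 8-cell library.

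Zar1l (ENSMUSG00000056586.8, chr5:150507055-150518164, minus strand), the paralog of Zar1, was far lower in the oocyte and had its highest mean in 1-cell embryos. It was at 5.80 and 11.0 TPM in the oocyte libraries and at 40.7 and 14.5 TPM in 1-cell embryos, which were above both oocyte libraries (1.49 ± 0.80, limma adjusted p = 0.630). The 2-cell libraries, at 2.76 and 21.3 TPM, overlapped with those of both earlier stages, and the 4-cell libraries held 3.17 and 4.57 TPM. From the 8-cell stage on Zar1l was at 0.451 TPM or lower and was listed at 0 in blastocyst replicate 2. The change from oocyte to blastocyst was -3.05 ± 0.80 (adjusted p = 0.00547). The 1-cell to 2-cell difference, -1.47 ± 0.80 (adjusted p = 0.178), passed with quantile scaling (adjusted p = 0.00896) and without 2-cell replicate 2 (adjusted p = 0.00574).

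Lsm14b (ENSMUSG00000039108.14, chr2:180024987-180035465, plus strand), a repressor in maternal mRNA particles, was at 108 and 148 TPM in the oocyte libraries and at 55.1 and 18.9 TPM in 1-cell embryos. The oocyte libraries were above every other library, and the difference of -1.94 ± 0.85 from oocyte to 1-cell had a limma adjusted p of 0.496. The 2-cell libraries were at 11.25 and 70.5 TPM, so that they lay on both sides of the 1-cell range. The 4-cell libraries held 6.39 and 7.09 TPM, and later libraries between 0.974 and 2.44 TPM. From oocyte to blastocyst Lsm14b fell by 5.69 ± 0.85 on the log2 scale (limma adjusted p = 9.75e-05).

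Ddx6 (ENSMUSG00000032097.10, chr9:44604892-44640731, plus strand), the P-body helicase, was measured by a 3′ fragment alone, which was low in every library. Its only long-read model came from sperm, and Ddx6 mRNA without this fragment would not be counted. The 3′ fragment was at 0.264 TPM in oocyte replicate 1, was listed at 0 in replicate 2, and was at 0.574 and 0.945 TPM in 1-cell embryos. It was at 1.51 and 3.85 TPM in 2-cell embryos, 4.34 and 5.06 TPM in 4-cell embryos, 2.77 and 1.67 TPM in 8-cell embryos and 7.13 and 2.32 TPM in blastocysts. All libraries from the 2-cell stage on were above all oocyte and 1-cell libraries. The rise from oocyte to blastocyst was 2.21 ± 0.59 (limma adjusted p = 0.00580). From 1-cell to 2-cell the difference was 0.99 ± 0.59 (adjusted p = 0.213) and changed sign with quantile scaling (-0.41).

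**Figure D2:**
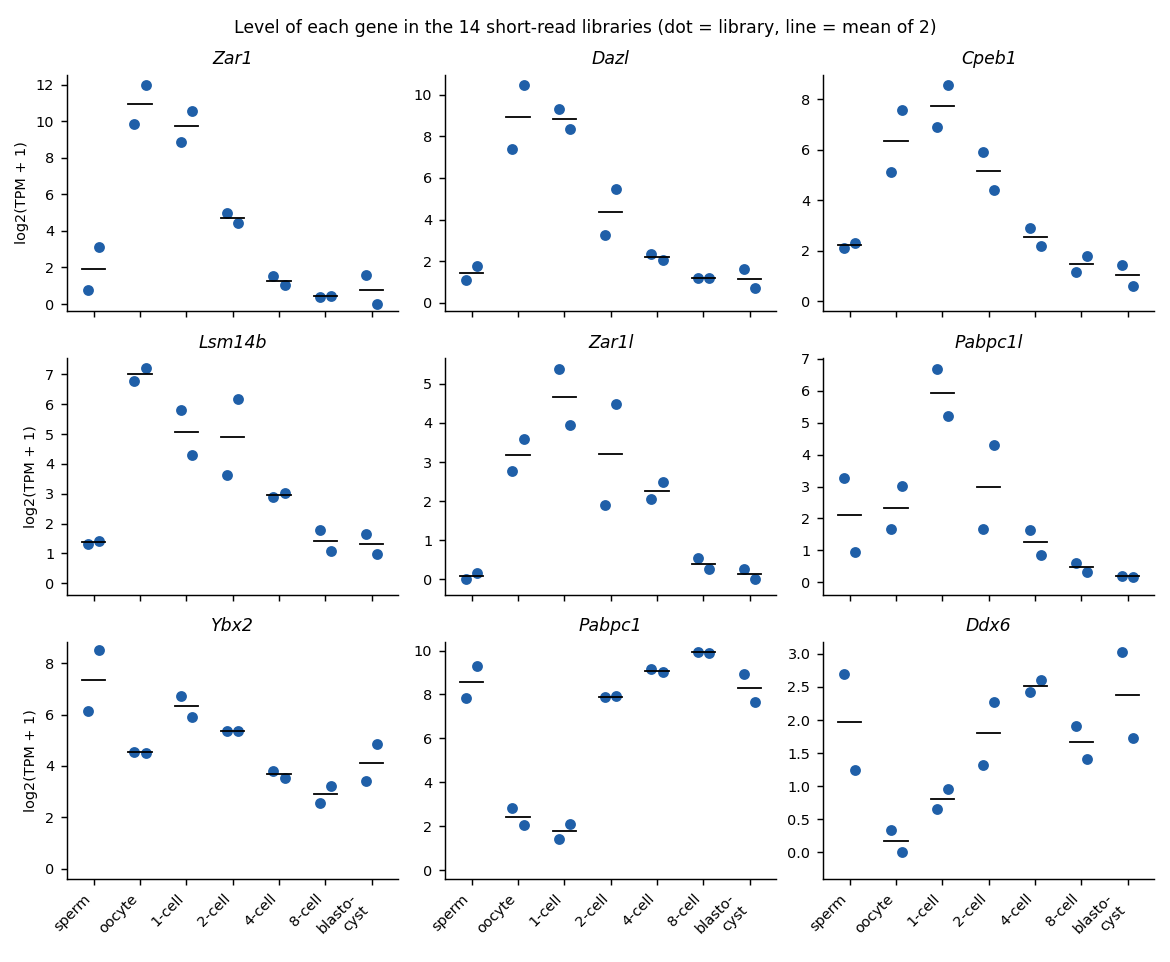
Level of each gene in the 14 short-read libraries as log2(TPM + 1), with 1 dot a library and a line at the mean of the 2 libraries of a stage. The vertical scale differs between panels. The panels of Zar1, Dazl, Cpeb1, Lsm14b, Zar1l and Pabpc1l have their highest stage mean in oocyte or 1-cell, Ybx2 has its highest in sperm, and Pabpc1 is lowest in oocyte and 1-cell.

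The other differences between neighbouring stages did not pass the test. From oocyte to 1-cell they were 1.39 ± 0.90 for Cpeb1, -0.09 ± 0.97 for Dazl, -1.19 ± 0.85 for Zar1, -0.67 ± 0.70 for Pabpc1 and 0.64 ± 0.59 for Ddx6. From 1-cell to 2-cell they were -0.97 ± 0.70 for Ybx2 (limma adjusted p = 0.311) and -0.17 ± 0.85 for Lsm14b (0.897). Going to the 4-cell stage, the differences were -2.62 for Cpeb1 (limma adjusted p = 0.106), -2.15 for Dazl (0.191) and -1.94 for Lsm14b (0.179). They were -1.74 for Pabpc1l (0.216), -1.68 for Ybx2 (0.159), -0.93 for Zar1l (0.484) and 0.71 for Ddx6 (0.465). Of the 9 members, 5 had an unadjusted p under 0.05 in this step, against 24.5% of all genes. The differences in the step to the 8-cell stage ran from -1.87 for Zar1l and -1.53 for Lsm14b over -1.06 for Cpeb1, -1.02 for Dazl, -0.85 for Zar1, -0.84 for Ddx6 and -0.79 for Pabpc1l to -0.77 for Ybx2 (limma adjusted p from 0.274 to 0.736). In the step to the blastocyst Ybx2 differed by 1.23 ± 0.70 (limma adjusted p = 0.476), and the others apart from Pabpc1 by -0.45 for Cpeb1 to 0.71 for Ddx6 (limma adjusted p from 0.700 to 1).

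At the 2-cell stage the higher library was not the same one for all members. Replicate 2 was higher for Dazl, Pabpc1l, Zar1l, Lsm14b and Ddx6, by factors of 5.03, 8.49, 7.71, 6.27 and 2.55, and it also had the larger sum of oocyte markers. Replicate 1 was higher for Cpeb1 (by a factor of 2.90) and Zar1 (1.47), while Ybx2 and Pabpc1 differed by factors of 1.02. The part of this difference between the libraries in the results was not tested beyond leaving each library out. From 2-cell to 4-cell, the differences without 2-cell replicate 1 were -3.25 for Dazl, -3.05 for Pabpc1l, -3.21 for Lsm14b and -2.21 for Zar1l. Without replicate 2 they were -3.36 for Cpeb1 and 0.36 for Zar1l.

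In sperm, Pabpc1 (231 and 634 TPM) and Ybx2 (70.2 and 366 TPM) were the most abundant members, and the other members were at 8.59 TPM or less. Against the oocyte, 3 members were lower in the oocyte and 5 were higher, where 53.6% of 10735 genes were called. Pabpc1 was lower by 6.15 ± 0.80 on the log2 scale (limma adjusted p = 1.17e-05), Ybx2 differed by -2.81 ± 0.83 (0.00919) and Ddx6, at 5.45 and 1.38 TPM in sperm, by -1.80 ± 0.66 (0.0298). Zar1 (8.99 ± 0.94), Dazl (7.50 ± 0.96), Lsm14b (5.63 ± 0.84), Cpeb1 (4.14 ± 0.89) and Zar1l (3.09 ± 0.78) were higher in the oocyte, and Pabpc1l (8.59 and 0.919 TPM in sperm) did not pass (0.23 ± 0.92, adjusted p = 0.851). The call for Ybx2 was lost without sperm replicate 2 (adjusted p = 0.131), and that for Ddx6 without sperm replicate 1 (0.232) or either oocyte library (0.0743 and 0.136) and with quantile scaling (0.232). Quantile scaling moved the median of all genes by 0.91 here and gave 2873 genes higher and 2854 lower in the oocyte, against 1863 and 3890. The sperm libraries also held markers of epididymis or blood, for which 5 of 6 genes had a merged transcript, all 5 above 0 in both libraries, with sums of 2219 and 511 TPM against at most 2.66 TPM in all other libraries. Crisp1 made up 2006 and 335 TPM of them, and their part in the sperm values was not tested.

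The isoforms of Dazl, Zar1, Pabpc1 and Ybx2 were then compared. In 2 of these genes the less abundant transcript lacked an exon whose length is a multiple of 3. The second Dazl transcript lacked exon 8 of the annotated transcript (chr17:50284996-50285046, 51 bases, all of them coding), and the second Zar1 transcript lacked exon 2 (chr5:72578426-72578518, 93 bases, all coding) through an intron outside vM21. The short Ybx2 transcript lacked exons 2 to 6. This Dazl intron (chr17:50284352-50286250) is in vM21, and that of Ybx2 (chr11:69935948-69940748) is not. The only Pabpc1l transcript also lacked an annotated exon, exon 13 with 131 coding bases, through an intron in vM21. The junctions that join the flanking exons of the former 3 are shown with the downstream exon in capitals.
Dazl, exon 7 to exon 9: gtttataactaccagGCTTATACAACTGTT
Zar1, exon 1 to exon 3: cgcctgcgtttccagGTGTACTTCAAACAG
Ybx2, exon 1 to exon 7: gaggaggcggtggcgGCAGCCTATAGCCGC

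The Dazl transcript without exon 8 made up 1.20% and 0.560% of Dazl TPM in the oocyte libraries and 0.933% and 0.587% in the 1-cell libraries. Its share was 9.08% and 5.71% in 2-cell embryos, 30.7% and 27.4% in 4-cell embryos, 36.5% and 54.0% in 8-cell embryos, and 3.96% and 6.39% in blastocysts. The shares of neighbouring stages did not overlap from 1-cell to 8-cell. In TPM, this transcript was at 1.99 and 7.97 in oocytes and 5.97 and 1.93 at the 1-cell stage, and at 0.776 and 2.46 at the 2-cell stage, while the full transcript went from 633 and 327 to 7.77 and 40.6 between the 1-cell and 2-cell libraries. The ratio of the former to the latter rose by 3.71 ± 0.66 on the log2 scale from 1-cell to 2-cell (limma adjusted p = 0.00660 over 10661 transcripts), where 15.8% of transcripts were called. The call held without each library in turn (adjusted p from 0.00562 to 0.0410) and was lost with 4 libraries alone (0.0927). From the 4-cell stage on the whole gene was at or under 4.15 TPM, so that those shares rest on low levels, and the ratio did not pass in the later steps.

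The Zar1 transcript without exon 2 stayed near 4% of Zar1 TPM in the 4 libraries where the gene was abundant, at 4.51% and 3.33% in oocytes and at 4.15% and 4.28% in 1-cell embryos. In TPM this was 42.7 and 134 in oocytes and 19.8 and 65.7 at the 1-cell stage. At the 2-cell stage it was 15.7% and 4.92%, with a ratio change of 1.68 ± 0.62 from the 1-cell stage (limma adjusted p = 0.0976), and later libraries held too little Zar1 for a share to be read. The Ybx2 transcript without exons 2 to 6 varied from 0.0235% to 59.4% of Ybx2 TPM with no order by stage, and its 2 libraries differed by more than 4 percentage points in each stage. Its ratio was not called in any step.

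Pabpc1 had 4 merged transcripts. From the 2-cell stage on 2 of them carried most of its TPM, namely a transcript of 9 exons that begins within the gene, at 286 and 359 TPM in 4-cell and 721 and 618 TPM in 8-cell libraries, and a 16-exon transcript with a first exon of 50 bases upstream of the start of the main annotated transcript (chr15:36609535-36609584), at 243 and 133 TPM in 4-cell and 249 and 294 TPM in 8-cell libraries. By TPM, the transcript with the annotated exon chain was the leading transcript in sperm, at 222 and 328 TPM, and was at 13.1 and 27.5 TPM in 8-cell libraries. The 9-exon and 16-exon transcripts together held 66.9 to 98.3% of Pabpc1 TPM in the 2-cell to blastocyst libraries, 84.6 and 94.9% in oocytes and 84.3 and 76.7% in 1-cell embryos, where the whole gene was at 6.05 TPM or less, and 1.59 and 45.8% in sperm. The 4th transcript, which differs from it by a donor site 9 bases away, was listed at 0 in the oocyte and 1-cell libraries and held at most 3.22% of Pabpc1 TPM later. Its ratio fell by 3.91 ± 0.75 on the log2 scale from 1-cell to 2-cell (limma adjusted p = 0.00896), a value that the pseudocount sets where the transcript is listed at 0, since with a pseudocount of 0.1 it was -1.45 (adjusted p = 0.379). It was also lost without 1-cell replicate 1 (0.0629). The long-read models of Pabpc1 did not follow this split of TPM. A 16-exon model came from sperm, where no model had the annotated exon chain, and none came from the embryo libraries. Models with the annotated chain of 15 exons came from the 2-cell, 4-cell, 8-cell and blastocyst libraries, and a 9-exon model from the blastocyst library. The cause of this difference was not tested.

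No other isoform ratio of a member was called in any step, and the share of transcripts called outside the 1-cell to 2-cell step was 0.131% between oocyte and 1-cell, 0.216% between 2-cell and 4-cell, 0.319% between 4-cell and 8-cell and 0.244% in the step to the blastocyst.

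**Figure D3:**
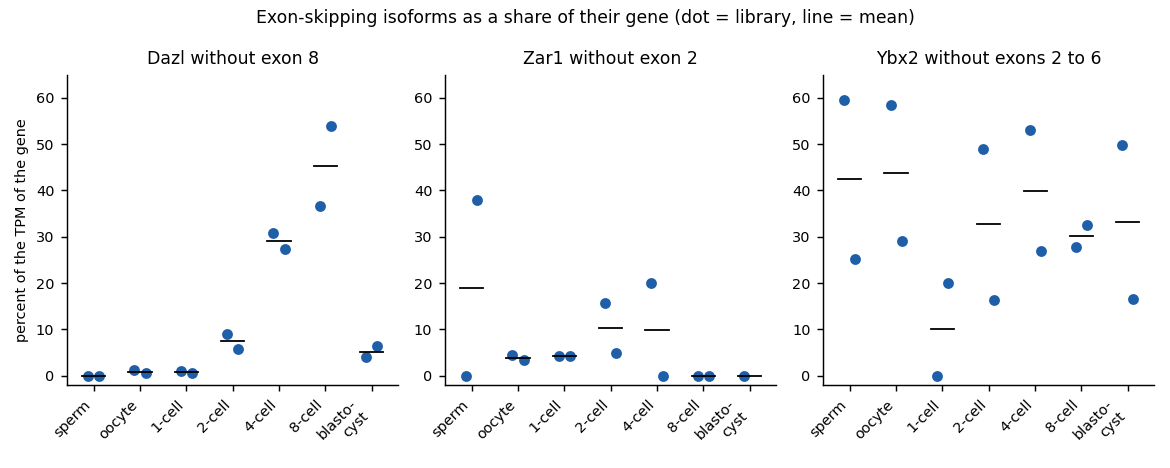
Share of the TPM of Dazl, Zar1 and Ybx2 held by the transcript without the named exons, in percent, with 1 dot a library and a line at the stage mean. For Dazl the share is 0.587 to 0.933% in 1-cell, 5.71 to 9.08% in 2-cell, 36.5 to 54.0% in 8-cell embryos (gene at 1.28 TPM or less) and 3.96 to 6.39% in blastocysts, and only the step from 1-cell to 2-cell passed the test. The share stays between 3.33 and 4.51% in oocyte and 1-cell libraries for Zar1, and has no order by stage for Ybx2. Blastocyst replicate 2 is missing for Zar1, which was listed at 0 there.

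The long-read libraries gave 38 transcript models of the 9 genes, out of 7034 to 8831 models a stage, with 1 library a stage and no replicate. All models of Cpeb1 (2), Zar1 (4), Zar1l (2), Lsm14b (2) and Pabpc1l (1) came from the oocyte or 1-cell library. Of 8 Dazl models, 7 came from these 2 libraries and 1 from the 2-cell library. Pabpc1 showed the opposite, with no model in the oocyte and 1-cell libraries, 2 in sperm and 11 from the 2-cell stage on. Ybx2 had 3 models in sperm, 1 in the oocyte and 1 in the 1-cell library, and the only Ddx6 model came from sperm. The transcript without Zar1 exon 2 was seen as a separate model in the oocyte and in the 1-cell library, that without Dazl exon 8 in the oocyte library, and that without Ybx2 exons 2 to 6 in sperm.

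**Figure D4:**
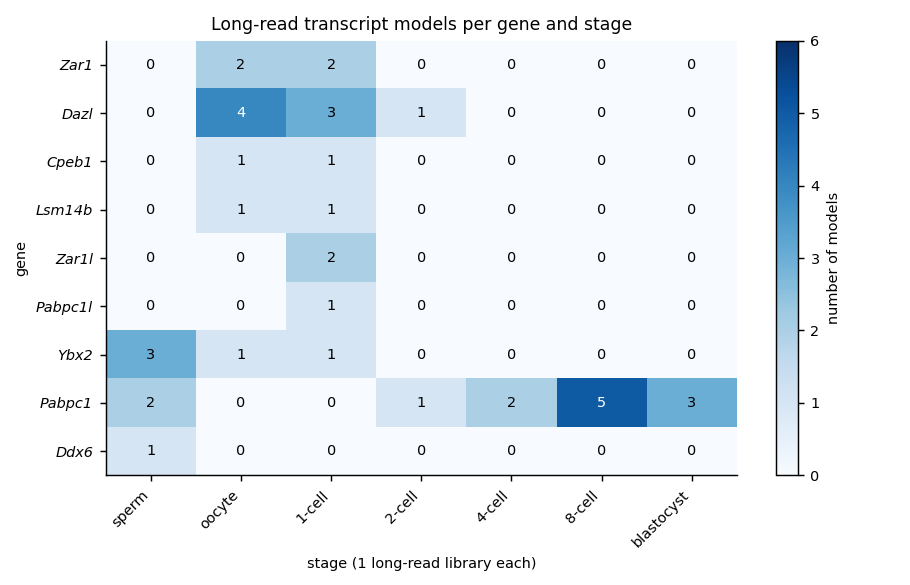
Number of long-read transcript models of each gene (rows) in the 1 long-read library of each stage (columns). Maternal genes such as Zar1 have their models in the oocyte and 1-cell columns, and Pabpc1 has models in sperm and from the 2-cell stage on.

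The 3′ ends of these models differed from the annotated ends in some genes. Dazl models ended either within 4 bases of the annotated end or far upstream of it, and the 4 models that ended 1654 or 1655 bases upstream came from the oocyte (2), 1-cell (1) and 2-cell (1) libraries. A further 1-cell model ended 1822 bases upstream. The 4 models that ended 1654 or 1655 bases upstream held a CPE 81 or 82 bases before their end. The merged Dazl transcripts, which end near the annotated end, had none in their last 100 or 200 bases. Bases farther upstream in them were not searched. The last 30 bases before the 1654-base end are shown because they hold no poly(A) signal.
Dazl, upstream end: atatagttgaaagaaaagataattgcaagt
Of the 20 bases that follow it in the annotated exon, 17 are A. The Cpeb1 model of the oocyte ended 426 bases upstream of the annotated end, also with 17 of 20 A after it and with no poly(A) signal, and it held a CPE 42 bases before its end. The Cpeb1 model of the 1-cell library ended 3 bases from the annotated end. Of the 7 Pabpc1 models with 15 exons, all from the 2-cell stage or later, 5 ended 345 or 346 bases upstream of the annotated end, without a signal and with 16 of 20 A after it. Over the 27 member models with 20 readable bases after the end, 16 had 14 or more A, against 19.2% of the 7489 merged transcripts that could be read in the same way. These 16 models were of Dazl, Cpeb1 and Pabpc1 only, and the same ends recurred in several stages. Models of separate stages count such an end more than once, which merged transcripts do not, so the member count and this share are not of like units. Whether cDNA priming within the transcript made these ends was not tested.

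Of the paralogs, Pabpc4, a further cytoplasmic poly(A)-binding protein, was at 25.7 and 157 TPM in oocytes and at 126 and 206 TPM in 1-cell embryos. In 2-cell embryos it was at 58.4 and 54.8 TPM. Pabpc4 was above Pabpc1 and the Pabpc1l fragment in all 4 maternal libraries. Pabpn1l, the oocyte form of the nuclear protein, fell from 862 and 1226 TPM in oocytes and 488 and 158 TPM in 1-cell embryos to 2.12 and 8.44 TPM in 2-cell embryos (-5.68 ± 0.79, limma adjusted p = 0.000244). Pabpn1 itself rose over the same step, from 10.7 and 23.1 to 92.2 and 475 TPM (3.65 ± 0.86, adjusted p = 0.00568).

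Ybx1 exceeded Ybx2 in every library from oocyte to blastocyst, at 501 and 1041 TPM in oocytes and 1386 and 1560 TPM in 8-cell embryos, and its 2-cell libraries lay far apart at 3966 and 225 TPM. Ybx3 stayed between 18.2 and 149 TPM in the same libraries. Lsm14a, the paralog of Lsm14b, was at 216 and 636 TPM in oocytes and at 22.8 and 13.8 TPM in blastocysts, and it fell by 4.31 ± 0.78 on the log2 scale (limma adjusted p = 0.000437). It was above Lsm14b in every library. Cpeb2 was at 0.661 and 0.0432 TPM in oocytes and at 5.23 and 29.0 TPM in 2-cell embryos, Cpeb3 at 8.47 and 9.16 TPM and at 86.2 and 13.1 TPM, and Cpeb4 at 4.17 and 1.53 TPM and at 8.05 and 18.5 TPM, so that Cpeb1 was the highest of the 4 in each oocyte and 1-cell library. No merged transcript was assigned to Boll, the paralog of Dazl.

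**Figure D5:**
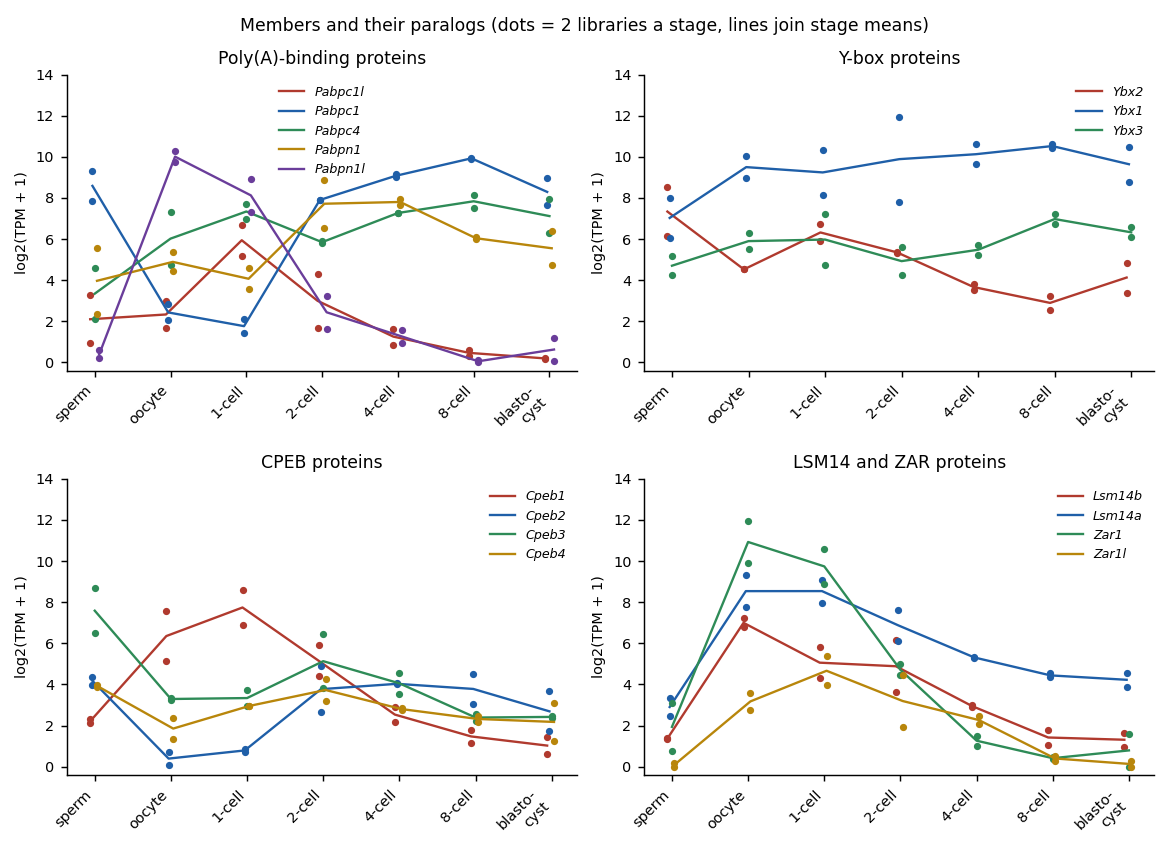
Levels of members and their paralogs as log2(TPM + 1), with dots for the 2 libraries of a stage and lines through the stage means. Pabpn1l is highest in oocytes, Pabpc1l (3′ fragment only) in 1-cell embryos and Pabpc1 in 8-cell embryos. Ybx1 lies above Ybx2 from oocyte to blastocyst.

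Of 15 measured genes of the polyadenylation and 3′ end machinery (17 in the list), 4 rose and 0 fell from 1-cell to 2-cell (6 and 1 at an unadjusted p under 0.05, which 42.9% of all genes passed), with a median change of -0.01 against 0.72 for all genes. Cpsf4, a subunit of the cleavage and polyadenylation factor, had the largest rise (3.08 ± 0.70, limma adjusted p = 0.00446). Over all genes 26.07% rose and 6.20% fell in this step, and 35.43% rose and 17.98% fell from oocyte to blastocyst. From oocyte to blastocyst 8 rose and 2 fell (median 1.79 against 0.82 for all genes), with the largest rise in Cpsf1 (4.71 ± 0.74), which was listed at 0 in oocyte replicate 1, and the largest fall in Wdr33 (-2.93 ± 0.83), both of the same factor. With quantile scaling these counts became 2 and 2 for both comparisons, so that the excess of rises over falls was lost.

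Of the poly(A)-binding proteins and their regulators, 6 of 10 genes could be tested. From 1-cell to 2-cell 1 rose (Pabpn1) and 1 fell (Pabpn1l), with a median change of -0.77. From oocyte to blastocyst 1 rose and 3 fell (median -0.71), with the largest rise in Paip2, an inhibitor of poly(A)-binding proteins (3.45 ± 0.75, limma adjusted p = 0.00151), and the largest fall in Pabpn1l (-9.38 ± 0.79). Of 20 measured genes of repressive mRNA particles (24 in the list), 2 rose and 3 fell from 1-cell to 2-cell (median -0.37), led by Igf2bp1 (4.13 ± 0.64) and by Dcp1a, a decapping cofactor (-3.40 ± 1.07). From oocyte to blastocyst 6 rose and 6 fell (median -0.36), led by Eif4e2, a cap-binding repressor (5.99 ± 0.79), and again by Dcp1a (-6.65 ± 1.07). Under quantile scaling the counts of this list were 2 and 7, and then 3 and 8. In the 4 remaining steps at most 1 gene of any list was called, against 0 to 4 genes of a list in 1 direction at an unadjusted p under 0.05, and the medians lay between -1.24 and 1.06. From sperm to oocyte 1 rose and 5 fell among the polyadenylation machinery, 4 and 3 among the poly(A)-binding proteins (8 tested here), and 10 and 3 among the repressive particle proteins, where 17.4% of all genes rose and 36.2% fell. With quantile scaling these counts were 3 and 4, 3 and 2, and 11 and 0.

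Over the 14 libraries, the genes whose log2(TPM + 1) was most like that of each member were sought among 9602 or 9603 other genes with a mean of 10 TPM or more in at least 1 stage. Pearson's r was 0.993 for Kpna7 with Dazl, 0.984 for Krt84 with Lsm14b, 0.981 for Grk2 with Pabpc1, 0.975 for Zbed3 with Cpeb1 and for Vil1 with Zar1l, and 0.971 for Hmces with Zar1. It was 0.950 for Crot with Ddx6, 0.945 for Ltc4s with Ybx2 and 0.941 for Kif17 with Pabpc1l. Hmces was the second most alike gene of Dazl as well (0.988), and Unc50 was among the 3 most alike of both Cpeb1 (0.964) and Zar1 (0.970). The remaining genes were Ppp1r3d for Cpeb1 (0.967), 7420426K07Rik for Dazl (0.985), Zfp108 and Dip2c for Pabpc1l (0.932 and 0.928), Dolpp1 and Senp2 for Pabpc1 (0.981 and 0.978), Phf7 and Il10rb for Ybx2 (0.914 and 0.906), Edrf1 for Zar1 (0.970), Gm44133 and Fcgbp for Zar1l (0.974 and 0.973), Cpa1 and Slc45a3 for Lsm14b (0.982 and 0.979), and Pls3 and Araf for Ddx6 (0.949 and 0.947). The libraries share their stages, so that these values describe likeness of course and carry no p.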

How the data were processed

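Short-read values were TPM of the merged long-read transcripts, computed by the authors with salmon and deposited as 1 table a library. Long-read transcript models of each stage (GMAP, Iso-seq3) and the merged set (Cuffmerge) were deposited as annotation files in mm10 coordinates. Merged transcripts were assigned to GENCODE vM21 genes by the largest same-strand exon overlap, and 18333 of 22612 were assigned. Gene TPM were summed, filtered at 1 TPM in at least 2 libraries and tested as log2(TPM + 1) with limma 3.58.1 (R 4.3.3, trended eBayes, 12 libraries, 14 for sperm), with Benjamini-Hochberg adjustment over all genes and a threshold of 0.05. Isoforms were tested as the log2 ratio of a transcript to the other transcripts of its gene. Sequences were read from GENCODE vM21 transcripts, and an end was allowed up to 5 bases beyond the annotation. Besides that of Pabpc1l, the end sequence of 1 member is not reported here. TPM tables of separate stage annotations were not used. The titles number the 8-cell replicates opposite to the file names, and the titles were followed. All members were given in all libraries, 1 largest rise and fall was named for each list, and the 3 most alike genes for each member. Members, lists and tests were chosen with earlier results of these data known. The fit was also run on simulated data, in which a gene had the same spread at all stages. In the real libraries the median SD ran from 0.186 (4-cell) to 1.04 (2-cell), so that run does not cover unequal spread. Pseudocount, filters, scaling, libraries fitted, replicate block, stage weights, gene assignment, end window and leaving out each library were varied.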

Additional observations from a re-analysis of the deposited data

How the results depend on the processing

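Of 1273 alternative values of the 63 member changes, 1191 kept direction and side of the threshold, 47 lost the call, 19 gained one and 16 changed sign. With only the 4 libraries compared, the members called were 1 in the step to the 1-cell, 3 to the 2-cell, 0 to the 4-cell and 4 to the 8-cell stage, and 0 isoform ratios. With the spread weighted by stage the gene counts were 1, 3, 0 and 3. From 2-cell to 4-cell, 0 members were called with a pseudocount of 0.1, with no filter or with the replicate block. Calls over all genes were counted for the main fit and for quantile scaling only. The member counts under these other settings therefore have no share of all genes beside them and cannot be read as a trait of the members. Leaving out 1 library gave 0 to 1 members from oocyte to 1-cell and from 4-cell to 8-cell, 0 to 5 from 2-cell to 4-cell, and 2 to 5 isoform ratios. Sign changes came with quantile normalization for Dazl (0.070 from oocyte to 1-cell, 0.16 from 8-cell to blastocyst), Ddx6 (-0.41 from 1-cell to 2-cell) and Lsm14b (0.077 from 8-cell to blastocyst). They came with a library left out for Dazl (-1.63 to 1.46 from oocyte to 1-cell, -0.45 to 0.43 from 8-cell to blastocyst), Lsm14b (-1.45 to 1.10 from 1-cell to 2-cell, -0.47 to 0.25 from 8-cell to blastocyst), Zar1l (-2.21 to 0.36 from 2-cell to 4-cell), Zar1 (-0.42 to 1.17 from 8-cell to blastocyst), Ybx2 (-1.13 to 0.33 from oocyte to blastocyst) and Pabpc1l (-0.93 to 1.39 from sperm to oocyte). None of these changes was called with all libraries, and the cause was not tested.

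Deviations of same-numbered libraries correlated from -0.547 to 0.479 over 15 pairs of stages. The 8-cell numbers differ between titles and file names, so the signs of pairs with that stage depend on this choice. The labels do not say whether a replicate number stands for the same batch across stages, so pairing by batch cannot be read from these values. With the replicate block, members called were 4 in the step to the 2-cell stage and 0 in each of the other steps between neighbouring embryo stages. There were 7 between oocyte and blastocyst and 8 between sperm and oocyte, again without a share of all genes. The 3 isoform ratios called were those of the main fit, among them both ratios of Dazl, which are mirror images and count as 1 result. The calls lost were Cpeb1 into the 2-cell stage (adjusted p = 0.0559), Zar1 into the 4-cell stage (0.0717) and Pabpc1l from oocyte to blastocyst (0.0577). The 3′ end counts in 200 bases were 2 transcripts with a CPE and 12 with a poly(A) signal, as in 100. TPM keep no depth, so no counting error could be given, and values under 1 TPM were read as low without a floor.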
